A study of Rattus norvegicus with 11 samples.

Results

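Fhl1, Fhl2, Fhl3 and Csrp3 are muscle genes whose proteins are built almost wholly of LIM domains. All 4 had a row among the 16810 gene rows of the count table. They were chosen by an earlier reading of these same libraries, in which Fhl3 was lower in each offspring of a high-fat mother than in any control offspring. The other 3 were added as its relatives and not for their own values, although earlier results of these data were known. RNA came from the soleus, a postural hind limb muscle, of 11 male Sprague Dawley rats aged 12 months, and the animal was the replicate because no litter was shared. The control group (n = 6) had mothers on a normal fat diet with 10% sucrose and, by differing statements in the labels, 6% or 7% fat. The high-fat group (n = 5) had mothers on a lard-based diet with 20% sucrose and 23.3% or 23.5% fat. Mothers ate these diets from 3 weeks before mating until the end of lactation, and every offspring ate standard chow after weaning at day 21, so no group ate a high-fat diet as adults.

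A LIM domain is a pair of zinc fingers that binds other proteins and not DNA. FHL proteins carry a lone zinc finger followed by a row of full LIM domains. They link the sarcomere and the integrin adhesions at the fibre surface to signalling enzymes and to transcription in the nucleus. Fhl1 encodes the main FHL protein of skeletal muscle, and its mutation causes several inherited myopathies. Fhl2 is best known from heart and smooth muscle, where it binds titin and represses serum response factor, which itself drives Fhl2. Fhl3 is found in skeletal muscle, where it binds actin and alpha-actinin and holds back MyoD. Csrp3 encodes muscle LIM protein, a partner of alpha-actinin and telethonin at the Z-disc that is typical of slow fibres and heart.

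The start regions of the FHL genes are printed to show how far they differ in base composition and motifs, which is a description of the sequences and bears on no difference between the diet groups. Each window holds 250 bases before and 50 after an annotated start in RefSeq's table for build GRCr8. That table matched 3 of the 4 members by symbol (2 starts each for Fhl1 and Fhl2, 1 for Fhl3). The counts do not say which start a transcript used. The Fhl3 window (chr5:142238540-142238839, plus strand) was 78.0% G and C, above 98.4% of the 33469 windows in the table, whose median was 51.7%. It held 6 matches to the GC box GGGCGG on either strand, marked by capitals, of which a pair shares 1 base. A GC box occurred in 33.1% of all windows and 6 or more occurred in 1.15%. No E-box (CANNTG), CArG box, MEF2 site or TATAAA was found in it.
Fhl3: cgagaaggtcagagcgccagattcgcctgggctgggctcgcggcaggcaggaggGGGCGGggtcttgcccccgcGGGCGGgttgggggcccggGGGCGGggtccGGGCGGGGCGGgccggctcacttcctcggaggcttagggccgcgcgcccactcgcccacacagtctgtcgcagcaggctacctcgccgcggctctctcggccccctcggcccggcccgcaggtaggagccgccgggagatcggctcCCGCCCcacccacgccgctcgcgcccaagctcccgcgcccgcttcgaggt

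The CArG box, the motif bound by serum response factor, was found on either strand in 1.64% of all windows. It was found in 3 of the 4 windows of Fhl1 and Fhl2, and capitals mark it below. It lay 102 bases before the start in the first Fhl1 window (chrX:139638246-139638545, plus strand). In the Fhl2 windows (minus strand, read in the direction of transcription) it lay 58 bases before the start at chr9:52923277-52923576 and 95 bases before it at chr9:52954491-52954790. The second Fhl1 window held none. These windows were 44.7% to 66.7% G and C and held 1 to 3 E-boxes each, a motif found in 72.1% of all windows. A match describes these letters and is not a measured binding site.
Fhl1 first start: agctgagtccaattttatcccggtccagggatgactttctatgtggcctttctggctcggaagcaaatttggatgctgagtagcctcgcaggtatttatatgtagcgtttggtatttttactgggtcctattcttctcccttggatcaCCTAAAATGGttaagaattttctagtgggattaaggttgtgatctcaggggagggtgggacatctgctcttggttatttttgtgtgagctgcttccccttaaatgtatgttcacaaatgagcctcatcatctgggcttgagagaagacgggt
Fhl2 first start: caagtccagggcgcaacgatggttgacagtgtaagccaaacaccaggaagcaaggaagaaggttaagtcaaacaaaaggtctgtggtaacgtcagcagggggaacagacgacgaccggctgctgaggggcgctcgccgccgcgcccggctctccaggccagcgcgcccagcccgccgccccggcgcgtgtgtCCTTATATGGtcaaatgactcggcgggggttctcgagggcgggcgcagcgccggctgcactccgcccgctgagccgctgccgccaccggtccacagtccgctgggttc
Fhl2 second start: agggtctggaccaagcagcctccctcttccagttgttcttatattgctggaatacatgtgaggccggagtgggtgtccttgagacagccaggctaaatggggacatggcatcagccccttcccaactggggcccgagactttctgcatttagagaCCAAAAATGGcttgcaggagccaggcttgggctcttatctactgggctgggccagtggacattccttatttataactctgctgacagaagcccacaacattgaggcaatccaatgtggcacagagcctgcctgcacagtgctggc

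**Figure D1:**
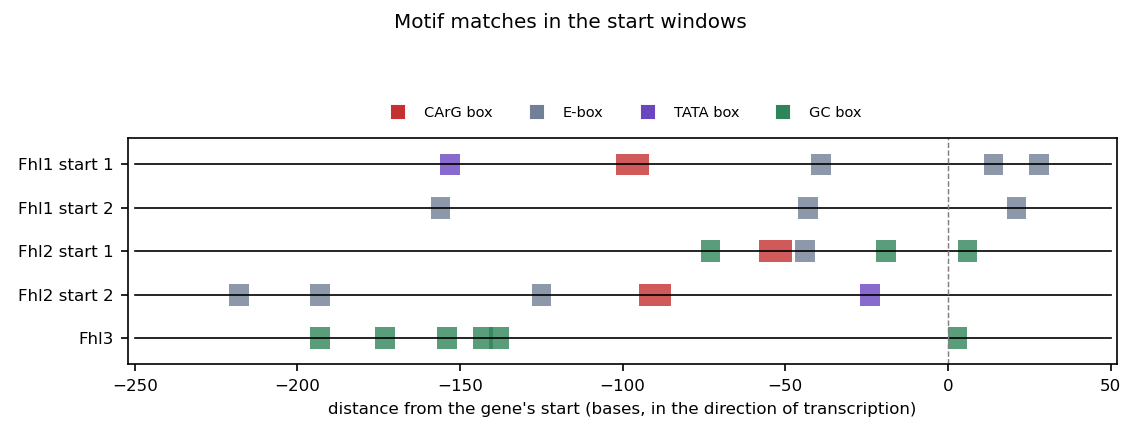
Matches to 4 motifs in the start windows of Fhl1, Fhl2 and Fhl3, by distance in bases from the annotated start (dashed line). A CArG box lies in both Fhl2 windows and 1 of the 2 Fhl1 windows, and the Fhl3 window holds 6 GC boxes and none of the other 3 motifs.

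Libraries held 10.2 to 15.4 M (M, mega) counted reads with 12333 to 12886 genes detected, and 10814 genes passed the filter on low counts, all members among them. Levels are counts per M counts (CPM), scaled with edgeR's TMM factors (0.897 to 1.12), which correct library sizes for differences in composition. The lowest count of a member in any library was 583 (Fhl2), at which counting error alone is 4.14%. It was at most 2.85% for the other members. CPM is not divided by transcript length, so levels are compared between animals and not between genes. The tissue, soleus, a slow muscle, was taken from the label. All 11 listed slow fibre genes were measured, as were 13 of the 14 listed fast fibre genes, so being measured does not check that label. Myh7, the slow myosin heavy chain gene, stood at 18432 to 23574 CPM in controls and 17367 to 25146 CPM in high-fat offspring.

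Fhl3, the actin-binding member, was lower in the high-fat group, which is the pattern it was chosen for and so carries no test. It stood at 172, 178, 184, 221, 149 and 205 CPM in control animals 1 to 6. In high-fat animals 1 to 5 it stood at 122, 139, 103, 119.7 and 118 CPM. The groups did not overlap. The highest high-fat animal (2, 139 CPM) lay just under the lowest control (5, 149 CPM), a narrow gap beside the range within each group. Group means were 120.4 ± 12.7 CPM (SD, n = 5) and 185 ± 25.4 CPM (SD, n = 6), 34.8% lower, and the edgeR log2 fold change was -0.62 ± 0.11 (SE). Spread was small in both groups, with a coefficient of variation of 10.5% and 13.7%. Of the 10814 genes tested, 18 (0.166%) lay wholly below the controls in this way, and nothing is read from that share because the rule used this contrast. Across all genes, the edgeR quasi-likelihood fit, adjusted by the Benjamini-Hochberg method, called 0 (0%) for the mothers' diet, with 523 (4.84%) at an unadjusted p under 0.05. The log2 fold change was negative in 49.1% of all genes. The count was 7 with DESeq2, 8 with a likelihood ratio fit in edgeR and 0 with limma voom.

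The lower Fhl3 level was similar in size under every setting tried. Each setting reused the values that chose Fhl3, so this describes the fits and is no test of the difference. It was -0.57 with the slow fibre score as a covariate, -0.60 with the fast fibre score and -0.60 with the macrophage score. These scores are the mean over a marker list of log2 CPM, each gene centred on its own mean. Animal names in the labels begin with 1 of several letters of unstated meaning, and with that letter in the fit the value was -0.67. Leaving out 1 library gave -0.70 (without control animal 5) to -0.56 (without control animal 4). Markers of other cells and of regeneration are given beside it by their counts. None of them passed the test, and their part in the Fhl3 difference was not tested. The summed levels overlapped between the groups in each list given. Macrophage markers had a higher high-fat mean in 16 of 16 tested genes of 17 listed, and their summed level ran from 608 to 1813 CPM in controls and 484 to 2599 CPM in high-fat offspring. None of the 16 was called, and 3 were at an unadjusted p under 0.05 in the edgeR fit, beside 4.84% of all genes. Cd163, a scavenger receptor of resident macrophages, had a log2 fold change of 1.31 ± 0.45. Satellite cell and regeneration genes had a higher high-fat mean in 13 of 16 (summed level 4896 to 7035 CPM in controls, 5143 to 9906 CPM in high-fat offspring). Of these 16, 6 were at an unadjusted p under 0.05, beside the same 4.84%, and none was called. Gadd45a, a stress-induced gene, was the 1 among the 16 whose groups did not overlap (1.55 ± 0.31). That was so, with the high-fat group higher, for 22 (0.203%) of all genes. The 6 genes were Gadd45a, Chrna1, Chrng, Chrnd, Runx1 and Vcam1. Pax7 (0.26 ± 0.55), Myog (0.25 ± 0.21) and Myod1 (0.20 ± 0.25) were not among them. Myh8, Cdh15 and Tmem8c had a lower high-fat mean. For fibroblast and matrix markers the high-fat mean was the higher in 16 of 20 (2277 to 6984 CPM, and 2883 to 6638 CPM), with 2 at an unadjusted p under 0.05 and none called. The count with a higher high-fat mean was 6 of 11 for adipocyte genes, 9 of 13 for smooth muscle and pericyte genes and 7 of 10 for endothelial genes. None was called, and 0, 1 and 1 of them were at an unadjusted p under 0.05. In bulk tissue, fewer cells of a type and less RNA per cell cannot be told apart.

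Fhl1, the main skeletal muscle member, did not differ between groups beyond its error. It stood at 33154, 39359, 45654, 37966, 36933 and 45225 CPM in control animals 1 to 6. In high-fat animals 1 to 5 it stood at 45223, 46250, 36173, 36539 and 33842 CPM. Both groups covered nearly the same range, with high and low animals in each. As a share of all counts its reads took 3.93 ± 0.48% in controls (SD, n = 6) and 3.98 ± 0.27% in high-fat offspring (SD, n = 5). The log2 fold change was -0.0040 ± 0.16 (edgeR adjusted p = 0.999), and it ran from -0.07 to 0.05 when 1 library was left out, changing sign among those fits.

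Fhl2, the heart and smooth muscle member, did not differ between groups beyond its error, and 1 animal stood apart. Controls 1 to 6 had 67.7, 62.7, 90.3, 94.97, 94.3 and 84.5 CPM. High-fat animals 1 to 5 had 154, 76.1, 48.8, 76.04 and 71.9 CPM. High-fat animal 1 was the highest of all 11, at 1.62 times the next, and high-fat animal 3 the lowest, so the high-fat group lay on both sides of the controls. Means were 85.3 ± 39.8 CPM (SD, n = 5) and 82.4 ± 13.9 CPM (SD, n = 6), with a log2 fold change of 0.05 ± 0.24 (edgeR adjusted p = 0.991). Without high-fat animal 1 the log2 fold change was -0.27 ± 0.16, and 4 of the 5 high-fat animals lay below the control mean.

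Csrp3, the Z-disc member, had the widest spread of the 4 in both groups. Controls 1 to 6 had 802, 675, 886, 1311, 552 and 932 CPM. High-fat animals 1 to 5 had 2542, 752, 559, 547 and 805 CPM. High-fat animal 1 again stood apart, at 1.94 times the next highest library, while the other 4 high-fat animals lay below the control mean. Means were 1041 ± 847 CPM (SD, n = 5) and 860 ± 262 CPM (SD, n = 6), and the log2 fold change was 0.28 ± 0.38 (edgeR adjusted p = 0.976). Without high-fat animal 1 it turned to -0.37 ± 0.22 (adjusted p = 0.905), so its sign rests on that library.

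**Figure D2:**
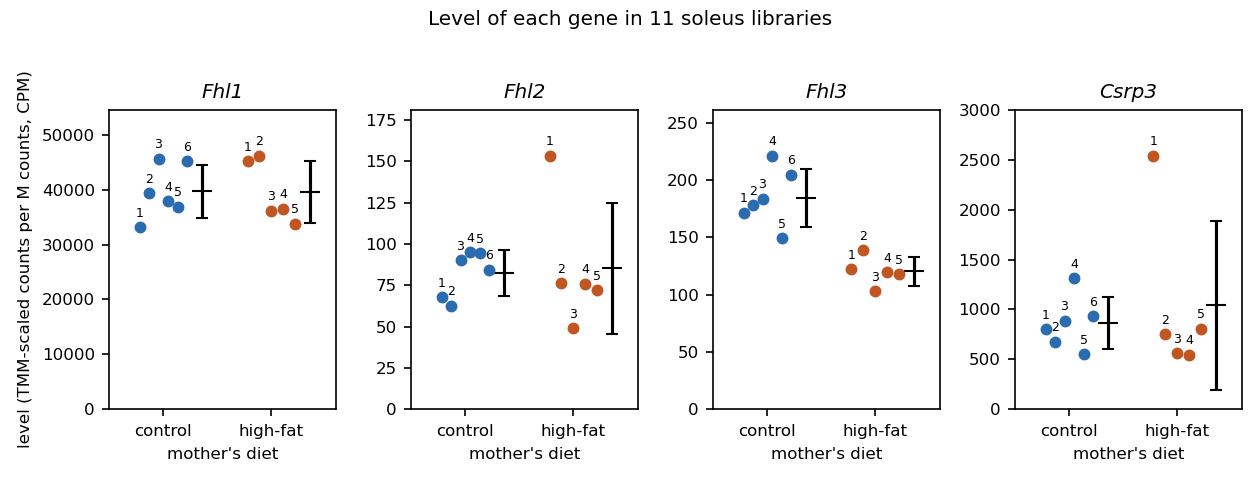
Level of each member (TMM-scaled CPM, linear axis from 0) in every animal, numbered by replicate, with the mean and SD of each group to its right. Fhl3 is the member whose groups do not overlap (103 to 139 against 149 to 221 CPM), and high-fat animal 1 stands far above the rest in Fhl2 and Csrp3.

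**Figure D3:**
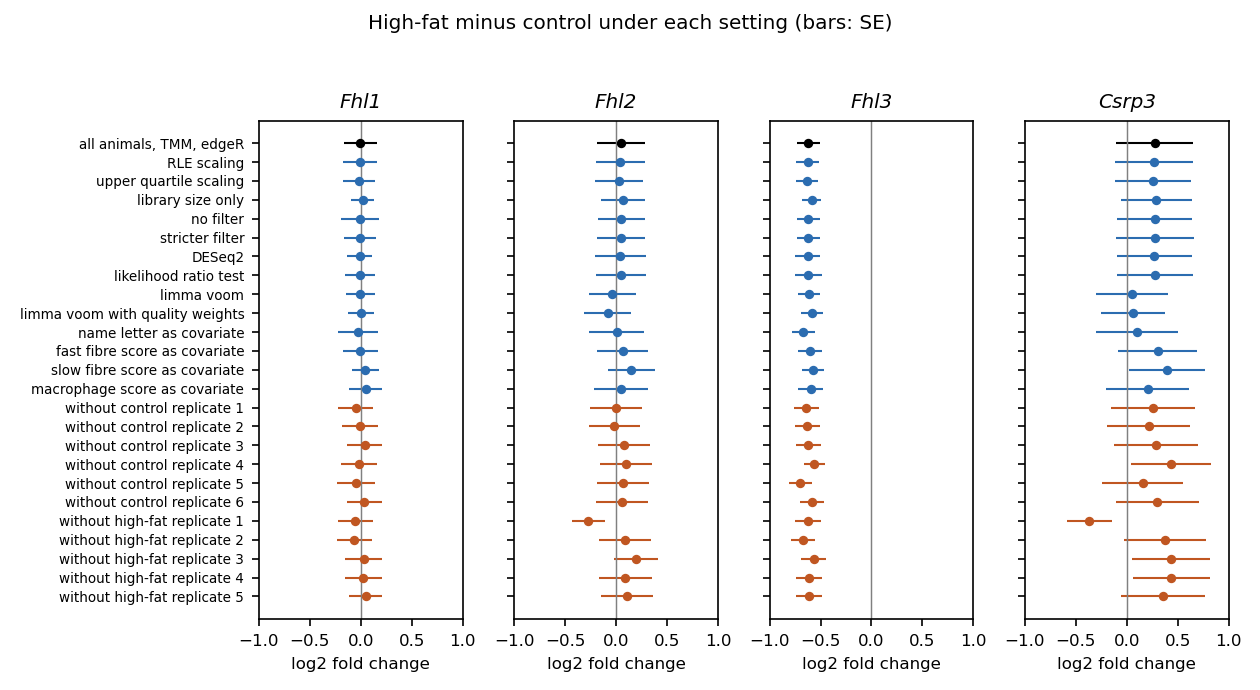
Log2 fold change of each member, high-fat minus control, with its SE, under the reported fit (black), other scalings, filters, tools and covariates (blue) and without each library in turn (orange). Fhl3 stays between -0.70 and -0.56, while Fhl2 and Csrp3 fall to -0.27 and -0.37 without high-fat animal 1.

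The other FHL genes of the table were Fhl4, which is known chiefly from testis, and Fhl5, an activator of CREM-type factors. Fhl4 stood at 77.4 ± 14.5 CPM in controls and 79.8 ± 10.9 CPM in high-fat offspring (log2 fold change 0.04 ± 0.13). It gained 1.62 to 2.26 counts for every 1000 counts of Fhl1 in each library, while reads were sequenced for only 36 cycles. Whether some Fhl4 counts are reads of a relative was not tested. Fhl5 stood at 0.765 to 2.24 CPM, on 10 to 31 counts per library.

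Members were next set against each other across the 11 animals. Csrp3 and Fhl2 were high and low together, with Pearson's r = 0.79 (permutation p = 0.00711, adjusted over the 6 pairs 0.0427) and Spearman's rho = 0.56 (permutation p = 0.0754, adjusted 0.253). That relation rests on high-fat animal 1, since r was 0.48 without it (permutation p = 0.157, adjusted 0.314) and 0.32 without the 2 libraries farthest from the Fhl2 median. It was 0.31 within the 6 controls (exact permutation p = 0.544). In the 10 fits that left out another library, r stayed at 0.78 to 0.91, although the adjusted p rose above 0.05 in 8 of them. With library size alone r was 0.75 and the call was lost (adjusted permutation p = 0.0935). Csrp3 and Fhl3 showed the opposite dependence. Over all animals r was 0.19 and rho 0.46, a description with no test because the values that chose Fhl3 enter it. With group means removed r was 0.49. Within the 6 controls it was 0.94, also with no test because the control values entered the choice too. Control 4 had the highest and control 5 the lowest level of both genes among the controls. Without high-fat animal 1 the r over 10 animals was 0.75, again with no test, and without the 2 libraries farthest from the Fhl3 median it was -0.14. The remaining 4 pairs had r of 0.19 to 0.50 over all animals, and those without Fhl3 did not pass.

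**Figure D4:**
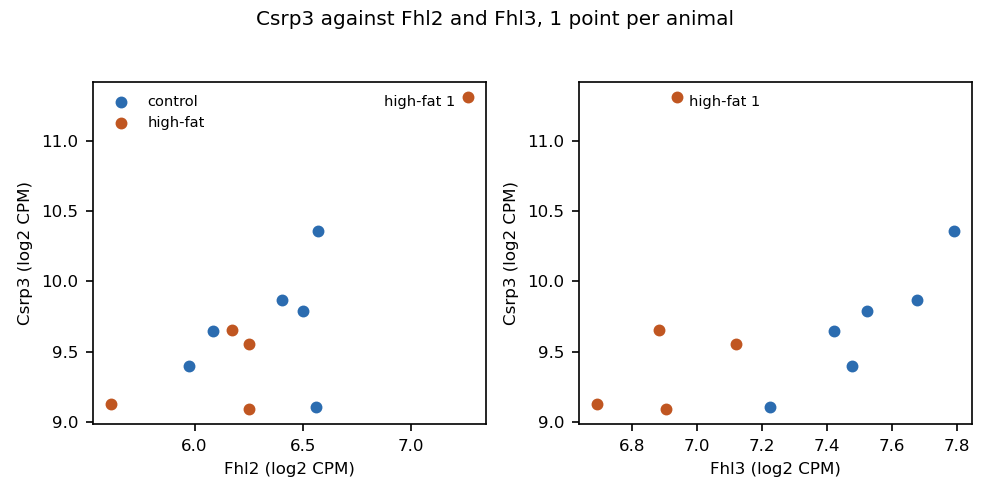
Csrp3 against Fhl2 (left) and against Fhl3 (right), log2 CPM, 1 point per animal. High-fat animal 1 carries much of the Fhl2 relation (r = 0.79 with it, 0.48 without), and the 6 controls lie near a line in the Fhl3 plot (r = 0.94).

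Fibre type genes were examined because the soleus mixes slow fibres with a variable share of fast ones. Myh2, the fast oxidative myosin gene, ranged 22.4-fold among controls (106.6 to 2391 CPM) and 22.8-fold among high-fat animals (100.1 to 2282 CPM), a wider range than that of any member. Fhl1, Fhl2 and Csrp3 did not follow either score beyond the permutation test, adjusted over all 8 relations (Fhl3 included). With the slow fibre score, r was 0.55 for Fhl1 (permutation p = 0.078), 0.42 for Fhl2 (permutation p = 0.198) and 0.26 for Csrp3 (permutation p = 0.418). Their rho was 0.49, 0.60 and 0.30 (permutation p = 0.130, 0.0565 and 0.369). Among these members the smallest adjusted permutation p was 0.529 for r and 0.360 for rho. For Fhl3, r was 0.45 and rho 0.48, a description with no test. Leaving out the 2 libraries farthest from the median score gave r of 0.26 for Fhl1, 0.098 for Fhl3, 0.55 for Fhl2 and 0.36 for Csrp3. DESeq2's size factors (RLE) gave similar values of 0.57 for Fhl1, 0.47 for Fhl3, 0.42 for Fhl2 and 0.27 for Csrp3. With library size alone r was -0.08 for Fhl1, 0.17 for Fhl3, 0.06 for Fhl2 and -0.20 for Csrp3. Over both groups the Fhl3 values include the difference it was chosen for, and with group means removed its r was 0.43.

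With the fast fibre score, r was 0.31 and rho 0.37 for Fhl3, again with no test. For the other 3, r was 0.02 to 0.09 (permutation p = 0.791 to 0.963) and rho 0.05 to 0.23 (permutation p = 0.504 to 0.904). Control 3 had the lowest fast fibre score and an Fhl3 level (184 CPM) above that of every high-fat animal, and it weighed on the Fhl3 value. Without it r was 0.66, and without the 2 libraries farthest from the median score it was 0.63. Within the 6 controls it was -0.02, and with group means removed 0.18. Fast fibre genes themselves had a negative log2 fold change in 12 of 13 measured (median -0.65, none called). Slow fibre genes did so in 10 of 11 (median -0.083, none called), with Pln at only -0.0013. Over all genes the share was 49.1% and the median 0.0039.

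**Figure D5:**
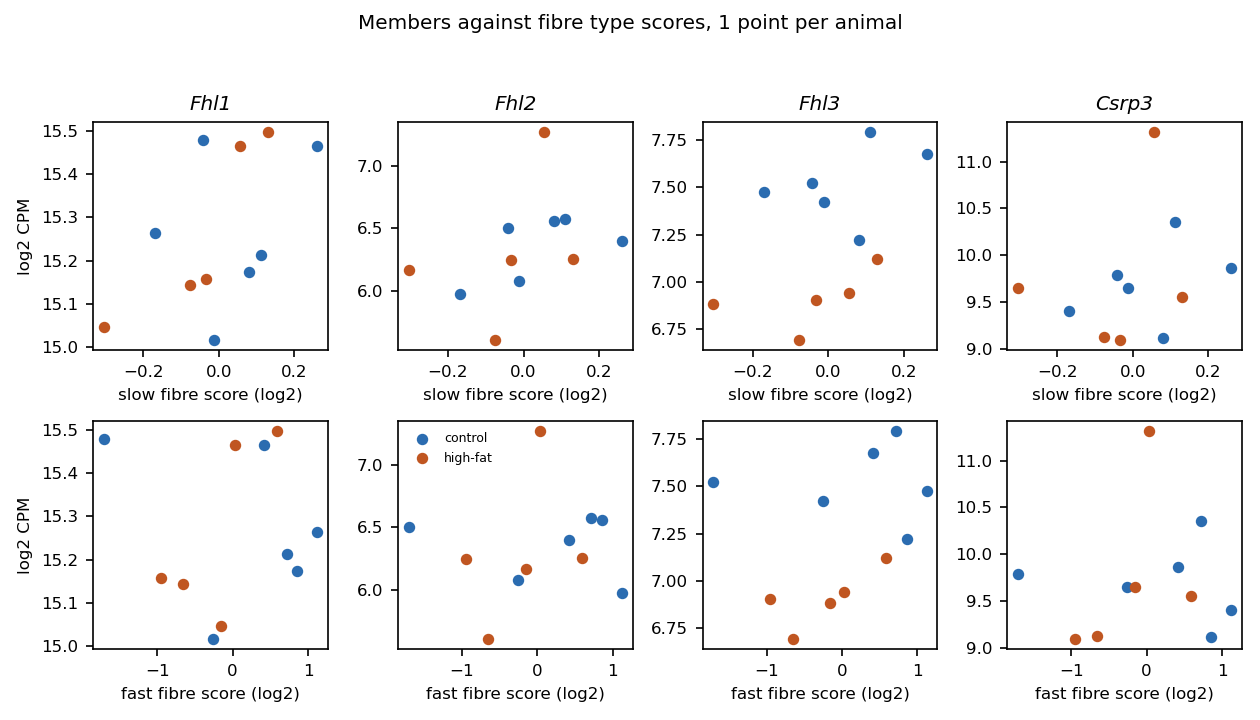
Log2 CPM of each member against the slow fibre score (top) and fast fibre score (bottom), 1 point per animal, blue for control and orange for high-fat. In Fhl3 the 5 high-fat animals lie below the 6 controls, which is the pattern it was chosen for. No panel of Fhl1, Fhl2 or Csrp3 gave an adjusted permutation p under 0.05.

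Animal measures in the labels were compared with the members in 16 relations. None of those of Fhl1, Fhl2 and Csrp3 passed (smallest adjusted permutation p 0.677 for r and 0.842 for rho). Fhl3 with plasma insulin gave r = -0.73 and rho = -0.52 over the 10 animals measured, a description with no test because both groups' values, which chose Fhl3, enter it. Insulin ran from 1.36 to 2.08 ng/ml in controls and 1.57 to 2.65 ng/ml in the 4 high-fat animals measured, and with group means removed r was -0.33. Within the 6 controls it was 0.12, so the negative relation over all animals was not seen there. Without the 2 animals farthest from the median insulin it was -0.41. Against 4 scores of other cell types, the adjustment was again over 16 relations, Fhl3 included. The smallest adjusted permutation p among Fhl1, Fhl2 and Csrp3 was 0.598 for r and 0.472 for rho. Fhl3 against satellite cell and regeneration genes gave r = -0.59 and rho = -0.60 over all animals, again with no test. With group means removed r was -0.23. That list holds Gadd45a and Chrna1 as well as Pax7, so its score is not one of satellite cells alone. Fhl1 against matrix genes gave r = -0.56 (permutation p = 0.0763; rho = -0.52, permutation p = 0.107).

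Genes whose level ran most like each member were listed by Pearson's r of log2 CPM with group means removed, over 11 libraries and 7166 genes of at least 10 CPM. These values are a description without a test, and all points share the same libraries and scaling. Csrp3 ran most like Myf6, a myogenic transcription factor of mature fibres (r = 0.97, and 0.90 without high-fat animal 1), followed by Ick, the lysosomal membrane gene Lamp1, Trafd1 and Spcs2 (0.92 to 0.94, and 0.69 to 0.83 without that animal). Fhl2 ran most like Trafd1 (0.93), the actin nucleator gene Diaph1 (0.92), the Z-disc and titin-binding gene Mypn (0.91), the actin cross-linker gene Flnc (0.90) and Hnrnph3 (0.90). Without high-fat animal 1 these 5 had r of 0.73 to 0.83, and Flnc was at 4150 CPM in that animal against 1951 to 2925 CPM in the other 10. Fhl3 ran most like Atp6v0a1, a proton pump subunit gene (0.95), the heat shock factor gene Hsf1 (0.92), Adamtsl4, Gnb2l1 and Zfp295 (0.89 to 0.91). Those 5 had log2 fold changes between the diet groups of -0.16 to 0.13, and none was called. Fhl1 ran most like RGD1304931 (0.92), the ribosomal stalk gene Rplp1 (0.90), RGD621098, Pip4k2c and Tmem66 (0.88 to 0.90).

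Partners of these proteins were described by counts. The shares over all genes given above stand beside each count. They were 4.84% at an unadjusted p under 0.05 and 49.1% with a negative log2 fold change (median 0.0039). Of 41 listed genes of other LIM proteins, 35 were tested, 24 had a higher high-fat mean and 11 a lower one, with a median log2 fold change of 0.06. None was called, and 1 was at an unadjusted p under 0.05, a share no greater than that of all genes. Csrp2, a relative of Csrp3 found in smooth muscle, had 0.53 ± 0.21 (12.7 ± 3.07 against 8.82 ± 2.41 CPM) and was that gene. Csrp1 had 0.11 ± 0.17. The adhesion scaffold gene Lims1 had 0.23 ± 0.14 and the transcription cofactor gene Lmo4 -0.20 ± 0.12.

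Of 30 Z-disc and costamere genes, 23 were tested, with 15 higher, 8 lower and a median of 0.06. None was called or had an unadjusted p under 0.05. The stress-responsive ankyrin repeat gene Ankrd1 had 0.66 ± 0.52, the integrin adhesion gene Parva 0.35 ± 0.22, the integrin subunit gene Itgb1 0.14 ± 0.11 and the chaperone partner gene Bag3 0.10 ± 0.12. Alpha-actinin gene Actn2, whose product binds Fhl3 and Csrp3 proteins, had 0.01 ± 0.14.

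Of 32 genes for signalling and transcription partners (calcineurin, NFAT, SMAD, MyoD family, CREM), 27 were tested, with 19 higher, 8 lower and a median of 0.09. None was called, and 1 was at an unadjusted p under 0.05, again a share no greater than that of all genes. Foxo1, a transcription factor that Fhl2 protein binds, had 0.60 ± 0.25 and was that gene. Crem, a cyclic AMP-responsive factor, had 0.33 ± 0.16, Smad3 0.39 ± 0.25 and the actin-severing gene Gsn 0.43 ± 0.28. Myod1, which Fhl3 protein holds back, had 0.20 ± 0.25, and serum response factor gene Srf -0.06 ± 0.10.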

How the data were processed

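The deposited values are whole-number read counts for each gene symbol, with a column for each animal. FastQC, BWA, HTSeq and edgeR are named, without versions, per the submitters' processing notes. The build, annotation and strand setting were not given in the sources used here. Short reads can be split between related genes. Each column was paired with its animal through the name in the title, and each group was read from the label of the mother's diet. Replicate numbers follow sample order, so high-fat animals 2 to 5 are those that the deposited table numbers 3 to 6. The 24 rows whose names had turned into dates (0.107% of counts) stayed in the fit.

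The 4 members, the gene lists and the tests were chosen with earlier results of these data known. Counts were filtered with filterByExpr and fitted across all genes with edgeR's quasi-likelihood F test, Benjamini-Hochberg adjustment and a threshold of 0.05, with no covariate. Each SE was derived from the fold change and its F statistic. Log2 CPM used a prior count of 2. Correlations used 100000 random pairings with 10 or 11 animals and all pairings with fewer, two-sided. Named genes were the members, Myh7, Myh2, up to 4 per list by smallest p and the 5 most alike per member. Actn2, Csrp1, Fhl4, Fhl5, Myod1 and Srf were added after their values were seen. Not every gene that this rule picks is printed. The fit was tested on simulated data with planted changes larger than that of Fhl3, and the outcome is not reported here. The software was edgeR 4.0.16, DESeq2 1.42.0 and limma 3.58.1 under R 4.3.3, with SciPy 1.17.1, NumPy 2.4.6, matplotlib 3.10.9 and pandas 2.3.3 under Python 3.11.15. Alternatives were other scalings, filters, tools, covariates and leaving out each library.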

Additional observations from a re-analysis of the deposited data

Results flagged for a closer look

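Both flagged values came from high-fat animal 1. Its Fhl2 level of 154 CPM lay far above the rest of its group, with a gap of 0.739 of the group's range against a limit of 0.71 for 5 samples. Its Csrp3 level of 2542 CPM had a gap of 0.871 of the range. In all, 8 groups of values were examined in this way (4 genes in each diet group), and chance flags about 1 in 20. The 2 values come from the same library and are not independent. What sets this animal apart was not tested.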

How the results depend on the processing

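The Fhl3 difference moved by less than the spread between animals under all 24 alternatives (-0.70 to -0.56 without 1 library). All of them reused the values that chose Fhl3, so nothing is read from that stability. Fhl1 turned to 0.018 with library size alone, 0.0021 with voom quality weights, 0.046 with the slow fibre score and 0.047 with the macrophage score, and ran from -0.066 to 0.047 without 1 library. Fhl2 turned to -0.037 with voom and -0.084 with its quality weights, and ran from -0.27 to 0.20 without 1 library. Csrp3 ran from -0.37 to 0.44. Fhl3 has no test, and the other 3 members were called in no setting (adjusted p of 0.871 or more). The count of genes called was 7 by DESeq2, 8 by the likelihood ratio test and 0 in all others.

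With library size alone the correlation with the slow fibre score was -0.082 for Fhl1 and -0.20 for Csrp3, and that with the fast fibre score -0.31 for Fhl1, -0.042 for Fhl2 and -0.018 for Csrp3. Without 1 library the fast fibre correlation ran from -0.092 to 0.40 for Fhl1, -0.067 to 0.25 for Fhl2 and -0.037 to 0.21 for Csrp3. Fhl3 with Fhl1 was -0.049 with library size alone, Csrp3 with Fhl3 was -0.14 without the 2 farthest libraries, and Fhl3 with Fhl2 ran from -0.14 to 0.60 without 1 library. The causes were not tested. Counts of 583 or more per library kept counting error under the spread between animals.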

Other observations

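High-fat animal 1 was also the highest library for some other sarcomere genes, which were singled out after their values were seen. It was highest in 6 of the 23 Z-disc and costamere genes tested (26.1%; Actn2, Ankrd1, Ankrd2, Des, Flnc and Myoz2), beside 10.7% of all 10814 genes. Ankrd2, a stretch-responsive partner of titin, stood at 3577 CPM there against 1110.1 to 2520.3 CPM in the other 10 animals. Des, the intermediate filament gene of the Z-disc, stood at 9022 CPM against 4312 to 6459 CPM, and Myf6 at 335 against 167 to 231 CPM. It was also the highest library in 4 of 16 satellite cell and regeneration genes (25.0%), 5 of 27 signalling partners (18.5%), 2 of 11 adipocyte genes (18.2%), 4 of 35 other LIM genes (11.4%), 1 of 10 endothelial genes, 1 of 11 slow fibre genes and 1 of 13 smooth muscle genes. It was so in none of the 16 macrophage, 20 matrix or 13 fast fibre genes. Des counts in both the Z-disc and the satellite cell list. Myog counts in both the satellite cell and the partner list, so these shares are not separate. Actn2 was only narrowly highest (6967 CPM against at most 6783 CPM in the other 10 animals). Fhl3 stood at 122 CPM in this animal, within the range of the other 4 high-fat animals.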
